A study of Mus musculus with 6 samples.

Results

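The tumor necrosis factor (TNF) superfamily consists of ligands that are mostly anchored in the cell membrane as trimers and of receptors that carry cysteine-rich repeats outside the cell. Some receptors hold a death domain and can start apoptosis, and the others recruit TRAF adaptors and activate NF-κB. In blood vessels TNF and lymphotoxin are known for switching on adhesion molecules and chemokines, and TWEAK, the product of Tnfsf12, acts on growing vessels through the receptor encoded by Tnfrsf12a. The genes were chosen by symbol (Tnf, Lta, Ltb, Ltbr, Cd40, Cd40lg, Cd27, Cd70, Fas, Fasl and every numbered Tnfsf or Tnfrsf symbol), which gave 41 of 24063 symbols in the deposited tables. They comprise 17 ligands, 5 death domain receptors, 15 receptors without a death domain and 4 decoy or orphan receptors.

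RNA was measured in endothelial cells (ECs) that the authors isolated from lungs of male C57BL6 mice with magnetic beads against CD31. A sham operation preceded 3 of the libraries, and the other 3 were made on day 7 after the surgical loss of a single lung (pneumonectomy, PNX), which sets off growth of the lung that stays. The labels name no engineered allele, both groups underwent an operation, and each library was a pool of 2 mice. The labels give an age of 8 weeks and the methods an older one. Replicates 1 and 2 of both groups are marked in the labels as re-used from a prior submission (earlier deposit), and replicate 3 is not (later deposit).

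The libraries held 29526989 to 81282871 counts, fewest for replicate 3 of either group, and the superfamily took 0.106% to 0.124% of them. Replicates 1 and 2 differed by little more than counting error in either group (chi-square per degree of freedom of 1.75 in sham and 1.57 in PNX, against 67.9 to 86.4 for pairs with replicate 3). They were therefore summed to 1 sample, which left 2 samples per group. All 8 endothelial markers were measured at high counts, and 1 of them, Tek, was lower in PNX in the blocked fit described next (adjusted p = 0.0192). Markers of other cells were present as well, and several of these lists differed between the groups, those of lymphocytes, macrophages and fibroblasts being given with the genes below. Of 7 epithelial markers 6 were lower in the blocked fit at an adjusted p under 0.05 (median log2 fold change -0.97), with summed CPM of 9253 and 9074 in the 2 sham samples, against 5995 and 2806 in PNX. Of 5 mesothelial markers 4 were called higher (median 1.07), with 136 and 346 summed CPM in sham, against 289.9 and 794 in PNX. The part of these cells in any result was not tested. In such bulk RNA, fewer cells of a type and less RNA per cell cannot be told apart.

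Levels of different genes were compared in deposited TPM, which is scaled by transcript length, taking for each gene the transcript with the most counts. The mean over 6 libraries exceeded 10 TPM for 17 of the 41 genes and was under 1 TPM for 8. Tnfrsf1a, the main receptor for soluble TNF, was the highest, at 190.1, 192.9 and 206.7 TPM in sham replicates 1 to 3 and 205.5, 200.0 and 221.1 TPM in PNX replicates 1 to 3. Tnfsf10, which encodes the death ligand TRAIL, followed at 126 to 154 TPM in sham and 107 to 141 TPM in PNX, below every Tnfrsf1a value. Next came Ltbr, the lymphotoxin β receptor (73.4 to 85.8 TPM), Fas, the receptor for Fas ligand (53.6 to 93.8 TPM), and Tnfsf12 (46.6 to 68.1 TPM), whose ranges overlapped in this order. Tnf itself lay at 21.8 to 48.2 TPM. The ligands spanned the widest range, from a mean of 0.0291 TPM for Cd70 to 137 TPM for Tnfsf10. For genes with several transcripts the choice of transcript sets the level. Summed over transcripts, Cd40 had 145.1 TPM in place of 27.3 and Fas 119.5 in place of 74.8.

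**Figure D1:**
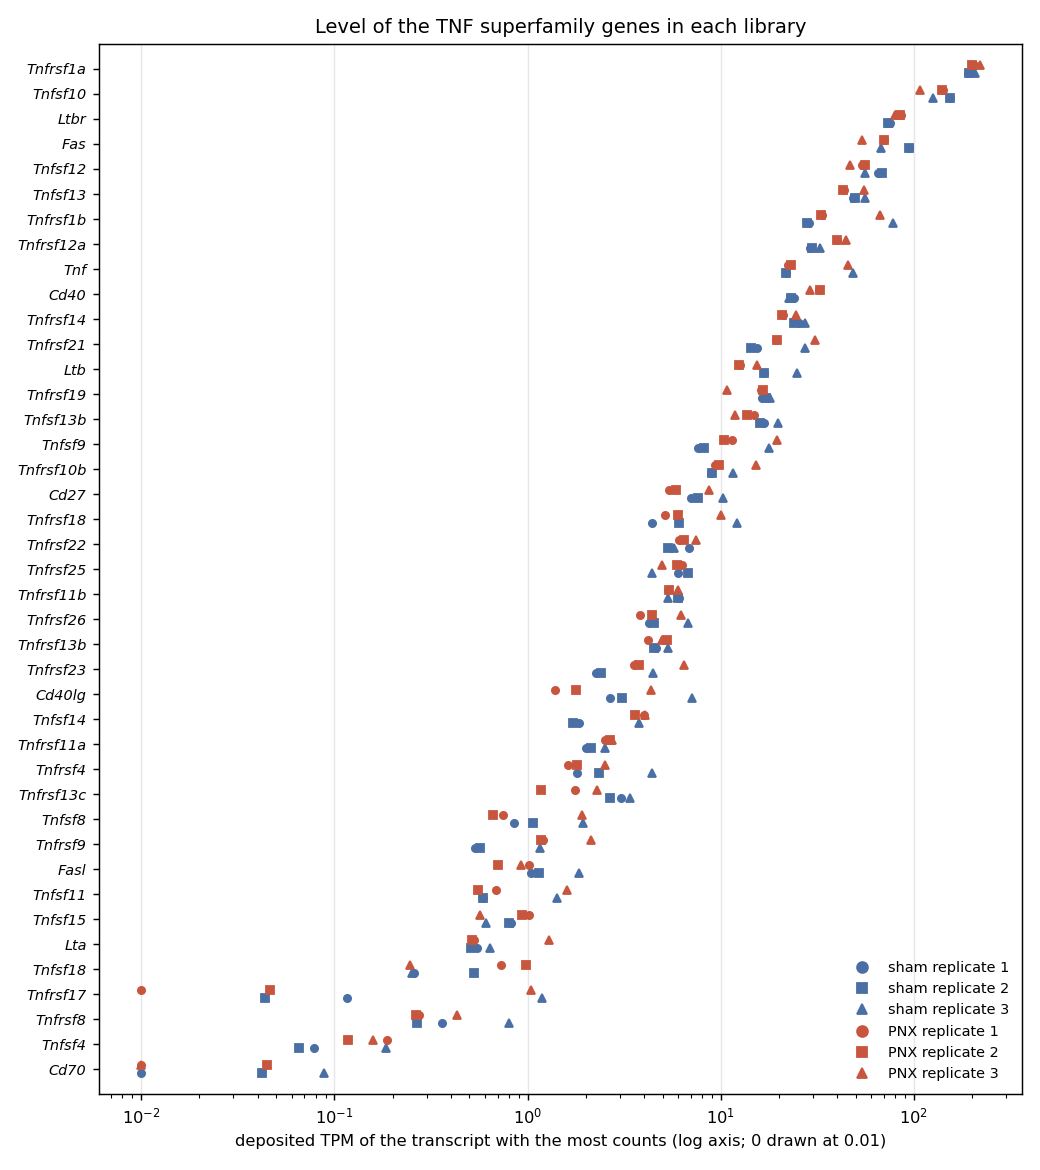
Deposited TPM of the 41 superfamily genes (log axis, transcript with the most counts), with sham libraries in blue, PNX libraries in red and replicates 1, 2 and 3 as circles, squares and triangles; values of 0 are drawn at 0.01. Tnfrsf1a (mean 202.7 TPM) and Tnfsf10 (136.9 TPM) stand at the top, and for genes such as Tnf and Tnfrsf1b the triangles of the later deposit lie well to the right of the other libraries in both groups.

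The comparison of PNX with sham asks whether these genes differ in lung ECs on day 7 of regenerative growth. A call required a log2 fold change beyond -1 or 1 together with an adjusted p under 0.01 in edgeR's quasi-likelihood test over all genes. Of the 41 genes, 39 had enough counts to be tested and 0 were called, and over all genes the test called 0% of 16598. With the deposit entered as a replicate block, which leaves 1 residual degree of freedom, again 0 of 39 were called, against 5.12% of all genes. With 6 separate libraries and DESeq2, 0 of 40 were called, against 5.3% of all genes. The log2 fold changes ran from -0.78 (Cd40lg) to 0.97 (Tnfrsf9) without the block. Their median absolute size was 0.27, beside 0.22 over all genes tested, and 18 were above 0 and 21 below. At an unadjusted p under 0.05 without the block, 2 of 39 passed (Cd40 and Tnfrsf12a), against 12.5% of all genes. Cd70 and Tnfsf4 were not tested. Cd70, the ligand of CD27, had 0, 1 and 1 counts in sham, against 0, 1 and 0 in PNX, and a count of 0 allows up to 3. Tnfsf4, the ligand of OX40, had 4, 3 and 4 counts in sham, against 9, 5 and 3 in PNX.

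At the looser threshold of an adjusted p under 0.05 the blocked fit passed 8 of 39 genes (20.5%), against 21.6% of all genes, so the share among these genes was close to the background. Tnfrsf9, Tnfrsf23, Tnfrsf12a and Cd40, all receptors, were higher after PNX (4 of 39, with 11.5% of all genes higher). Fas, Ltb, Cd40lg and Tnfrsf13c were lower (4 of 39, with 10.1% of all genes lower). Without the block the adjusted p of these genes was 0.297 or more. They are described one by one because they passed, a choice made after their values were seen. CPM values below are counts of the most abundant transcript relative to the TMM-scaled library size, with the mean ± SD over the 2 samples of a group, whereas fold changes come from the fit on counts summed over the transcripts of a symbol. Whether the libraries come from separate cell isolations is not stated for each replicate, so all p-values concern the samples as deposited. Those of the blocked fit measure the spread left after the deposit difference is taken out, on 1 residual degree of freedom. Their variance estimate for a gene draws in part on the other genes. Those without the block keep the deposit difference in the spread.

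**Figure D2:**
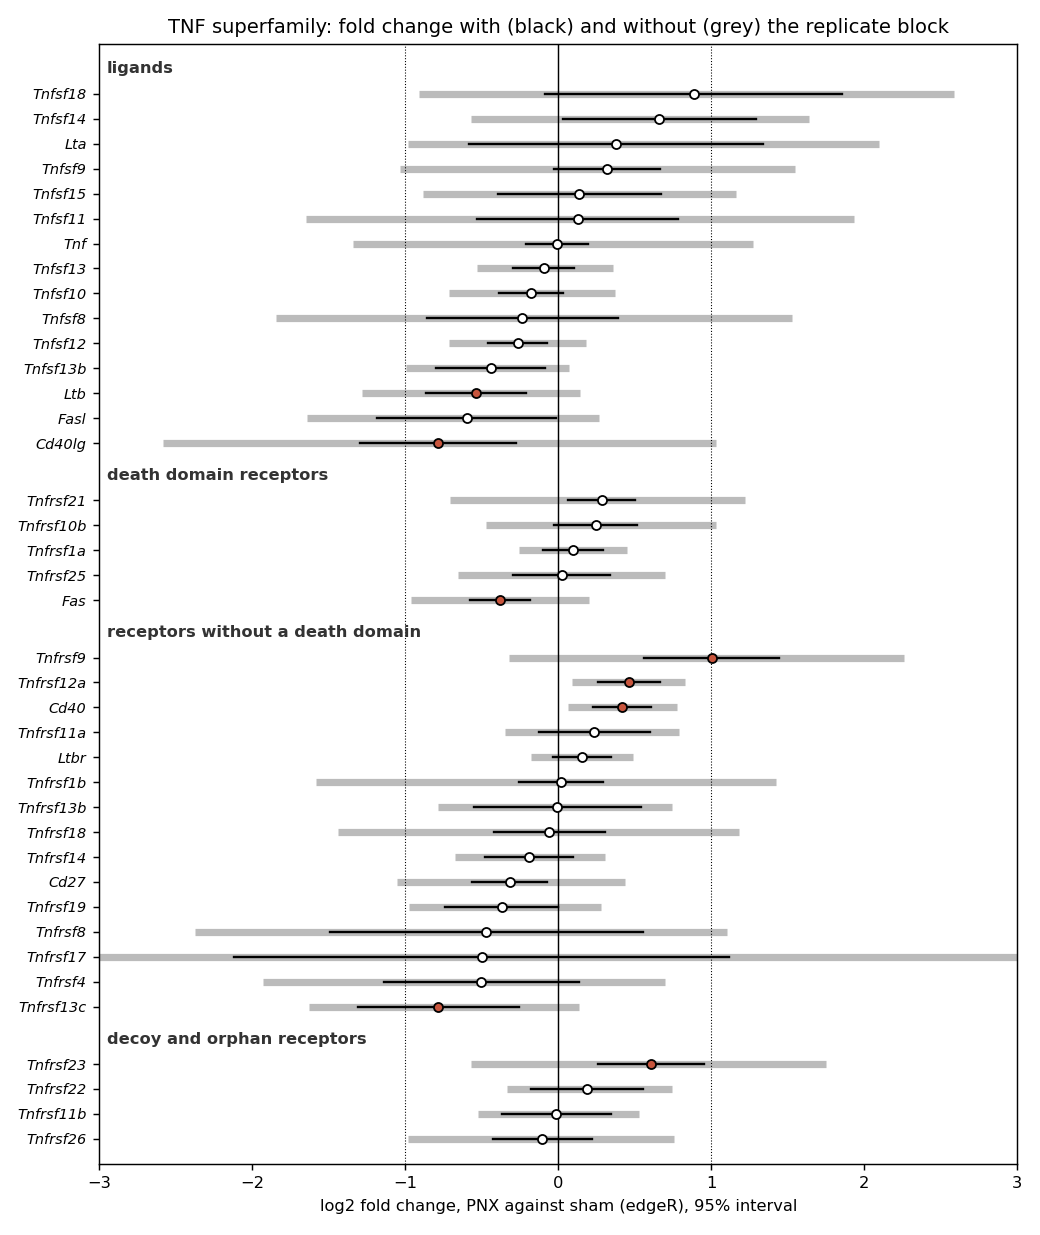
Log2 fold change of PNX against sham for the 39 tested genes (horizontal axis; dotted lines at -1 and 1), ordered by role. Points and black bars give the blocked estimate with its 95% interval, red where the adjusted p is under 0.05, and grey bars the 95% interval without the block (the bar of Tnfrsf17 runs past the axis); 8 points are red, and the grey bars of Tnfrsf12a and Cd40 are the 2 that do not cross 0.

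Cd40, a costimulatory receptor that ECs and B cells carry, stood at 17.1, 16.4 and 16.0 CPM in sham, against 23.1, 23.3 and 20.6 CPM in PNX. All 3 PNX libraries lay above all 3 sham libraries. The means were 16.4 ± 0.568 CPM in sham and 21.9 ± 1.86 in PNX (SD, n = 2), a fold change of 1.34 (95% interval 1.17 to 1.52, adjusted p = 0.0114) with the block and a log2 fold change of 0.42 ± 0.14 (SE, adjusted p = 0.323) without it. Its ligand Cd40lg, an activated T cell product, had 1.33, 1.54 and 3.53 CPM in sham, against 0.693, 0.893 and 2.16 CPM in PNX. PNX was lower than sham within each deposit, while the later PNX library exceeded the earlier sham libraries. The blocked log2 fold change of Cd40lg was -0.79 ± 0.22 (SE, adjusted p = 0.042), and it did not pass without PNX replicate 1 or without sham replicate 2 (adjusted p up to 0.0836). Receptor and ligand thus differed in opposite directions.

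Tnfrsf12a, the receptor for TWEAK, had 11.2, 11.4 and 12.5 CPM in sham, against 15.5, 15.5 and 17.0 CPM in PNX. The groups did not overlap. The mean was 11.9 ± 0.823 CPM in sham and 16.3 ± 1.07 in PNX (SD, n = 2), with a blocked fold change of 1.38 (95% interval 1.20 to 1.59, adjusted p = 0.0103) and an adjusted p of 0.297 without the block. Tnfsf12, the TWEAK gene, had 44.1, 46.0 and 37.6 CPM in sham, against 36.6, 38.1 and 31.4 CPM in PNX. Its blocked log2 fold change of -0.27 ± 0.08 (SE) missed the looser threshold (adjusted p = 0.0597). Tnfsf12 and its neighbour Tnfsf13 overlap the joint gene Tnfsfm13 on chromosome 11, and reads of the 3 could be divided in more than 1 way.

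Tnfrsf9 encodes CD137, a costimulatory receptor of activated T cells that cytokine-treated ECs can also carry, and was among the scarce members, at a mean of 1.13 TPM. Its counts were 36, 34 and 33 in sham, against 76, 66 and 53 in PNX, or 0.451, 0.479 and 0.970 CPM against 1.01, 0.998 and 1.79 CPM. Every PNX library was above every sham library, although the lowest PNX value (0.998) and the highest sham value (0.970) nearly met. The blocked fold change of 2.00 (95% interval 1.48 to 2.72), on counts summed over 3 transcripts, was the largest of the superfamily. Its adjusted p of 0.0100155 was above the stricter threshold. On the counts printed here, those of the most abundant transcript alone, the blocked adjusted p was 0.0392. Without the block the adjusted p on summed counts was 0.532. Tnfrsf9 overlaps Camta1 on the other strand of chromosome 4, and although the libraries were made with a stranded kit, the strand setting of the counting is not stated. Tnfsf9, its ligand, had 3.72, 4.01 and 8.64 CPM in sham, against 5.61, 5.10 and 9.54 CPM in PNX (blocked adjusted p = 0.171).

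Tnfrsf23, a mouse decoy receptor for TRAIL that lacks a death domain, had 2.96, 3.14 and 5.82 CPM in sham, against 4.69, 4.99 and 8.45 CPM in PNX. Within each deposit PNX was higher, but the later sham library exceeded the earlier PNX libraries. The blocked fold change was 1.52 (95% interval 1.20 to 1.94, adjusted p = 0.0268). Its neighbours on chromosome 7 did not pass: Tnfrsf22, also a TRAIL decoy, had a blocked log2 fold change of 0.19 ± 0.16 and the orphan receptor Tnfrsf26 one of -0.10 ± 0.14 (SE). All 3 overlap E230032D23Rik on the other strand. The similar sequences of these neighbours could share reads, which makes their separate values uncertain. The remaining decoy, Tnfrsf11b (osteoprotegerin), which captures RANK ligand, had a blocked log2 fold change of -0.01 (95% interval -0.37 to 0.34).

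**Figure D3:**
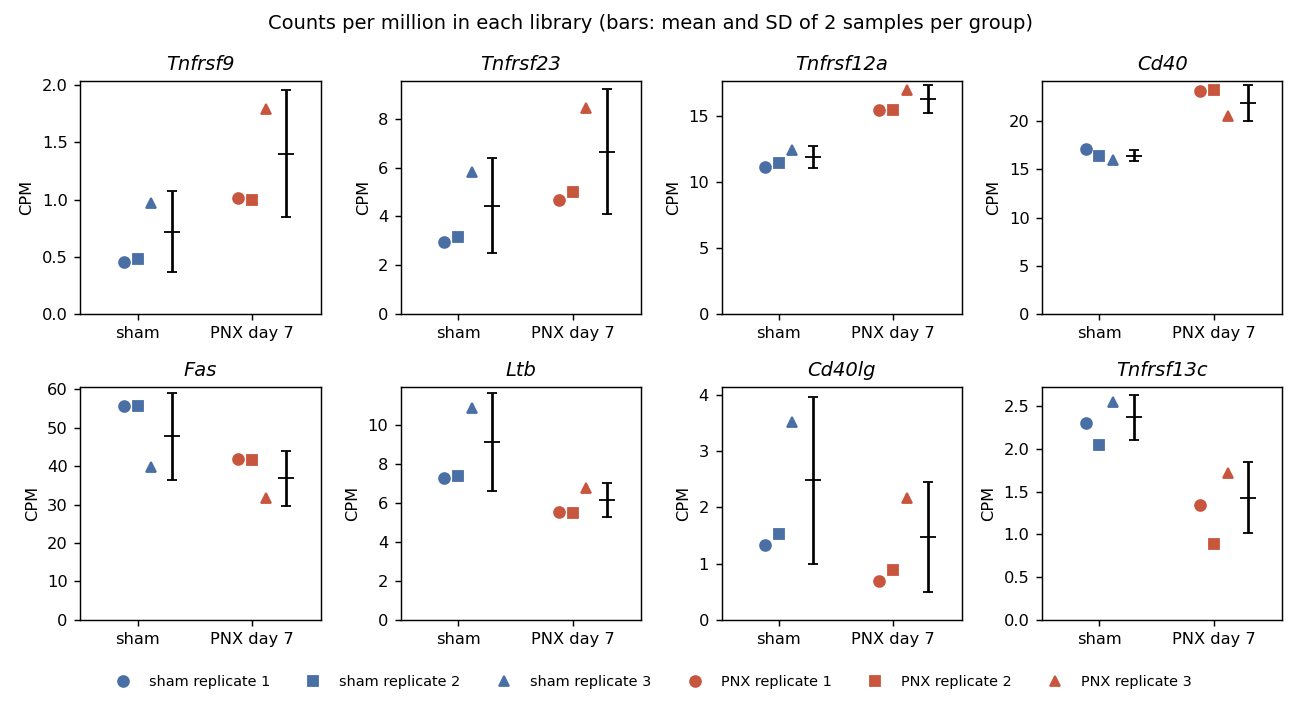
CPM (vertical axes from 0) of the 8 genes with an adjusted p under 0.05 in the blocked fit, in each sham (blue) and PNX (red) library; black bars give the mean and SD of the 2 samples per group. For Tnfrsf9, Tnfrsf23, Tnfrsf12a, Ltb, Cd40lg and Tnfrsf13c the later library (triangle) is the highest of its group, and for Cd40 and Fas the lowest. Within each deposit the PNX value lies on the same side of the sham value, which the choice of these genes by the blocked fit favours.

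Among the death domain receptors Fas was the gene that passed the looser threshold. It had 55.6, 55.6 and 39.7 CPM in sham, against 41.9, 41.7 and 31.7 CPM in PNX. The later sham library lay just below the earlier PNX libraries, so the groups overlapped, whereas PNX was lower in each deposit. The blocked fold change was 0.768 (95% interval 0.672 to 0.878, adjusted p = 0.0175), and without the block the log2 fold change was -0.38 ± 0.22 (SE, adjusted p = 0.586). The shorter of the 2 Fas transcripts had 21.1% to 25.8% of the count of the longer in the 6 libraries, with overlapping ranges in sham and PNX. Fasl, the Fas ligand of cytotoxic lymphocytes, had 0.802, 0.887 and 1.41 CPM in sham, against 0.786, 0.545 and 0.710 CPM in PNX. The sham libraries all lay above the PNX libraries, at 175 and 116 counts in all. Fasl did not pass (blocked log2 fold change -0.60 ± 0.25, adjusted p = 0.134).

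Tnf and its receptors showed no call in either fit. Tnf had 14.4, 14.4 and 31.6 CPM in sham, against 14.8, 15.3 and 29.8 CPM in PNX, so the deposits differed far more than the groups. The blocked log2 fold change was -0.01 (95% interval -0.21 to 0.20). Tnfrsf1a had 163, 166 and 177 CPM in sham, against 177, 173 and 189 CPM in PNX, a blocked log2 fold change of 0.10 (95% interval -0.10 to 0.29). Tnfrsf1b, the second TNF receptor, which membrane-bound TNF engages best, had 55.9, 54.9 and 152 CPM in sham, against 65.9, 65.3 and 131 CPM in PNX. PNX was higher than sham in the earlier deposit and lower in the later.

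For TRAIL, Tnfsf10 had 303, 304 and 248 CPM in sham, against 278, 278 and 210.4 CPM in PNX. Its blocked log2 fold change of -0.18 (95% interval -0.39 to 0.03) had an adjusted p of 0.201. Tnfrsf10b, the mouse death receptor for TRAIL, had 11.3, 11.4 and 14.6 CPM in sham, against 11.9, 12.4 and 19.3 CPM in PNX, with overlap between the groups. The remaining death domain receptors were Tnfrsf21 (death receptor 6, blocked log2 fold change 0.29 ± 0.09, adjusted p = 0.0679) and Tnfrsf25, the receptor for the product of Tnfsf15 (0.02 ± 0.13, SE).

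In the lymphotoxin branch, which shapes lymphoid tissue, the ligand chain Ltb had 7.27, 7.34 and 10.8 CPM in sham, against 5.50, 5.48 and 6.73 CPM in PNX. All PNX libraries were below all sham libraries. The means were 9.09 ± 2.50 CPM in sham and 6.13 ± 0.872 in PNX (SD, n = 2), with a blocked fold change of 0.689 (95% interval 0.550 to 0.863, adjusted p = 0.0327) that did not pass without PNX replicate 1 (adjusted p = 0.0598). Lta, the partner chain, was scarce, at 24, 20 and 12 counts in sham, against 22, 19 and 21 in PNX, and no difference was detectable at this depth (blocked log2 fold change 0.38, 95% interval -0.58 to 1.34). Their receptor Ltbr had 63.0, 61.3 and 61.5 CPM in sham, against 71.8, 71.2 and 66.1 CPM in PNX. The PNX libraries all lay above the sham libraries, by a blocked log2 fold change of 0.15 ± 0.08 that did not pass (adjusted p = 0.224). Tnfsf14, the ligand LIGHT, which also binds Ltbr, had 1.38, 1.28 and 2.79 CPM in sham, against 2.98, 2.69 and 3.01 CPM in PNX. Its other receptor, Tnfrsf14, had a blocked log2 fold change of -0.19 ± 0.12 (SE).

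Among the genes of B cell survival, Tnfrsf13c, which encodes the BAFF receptor, had 2.31, 2.04 and 2.56 CPM in sham, against 1.35, 0.893 and 1.72 CPM in PNX. The groups did not overlap, and the means were 2.38 ± 0.263 and 1.43 ± 0.418 CPM (SD, n = 2). The blocked log2 fold change was -0.79 ± 0.22 (SE, adjusted p = 0.0458), but the call was lost whenever a library of the earlier deposit was left out (adjusted p 0.0546 to 0.0723). Tnfsf13b, which encodes BAFF, had 11.4, 10.7 and 13.4 CPM in sham, against 10.1, 9.26 and 7.98 CPM in PNX, again without overlap, and did not pass (blocked adjusted p = 0.0804). Tnfsf13, which encodes the related ligand APRIL, had a blocked log2 fold change of -0.10 ± 0.08 and Tnfrsf13b, the receptor TACI, one of -0.01 ± 0.23 (SE). Tnfrsf17, the plasma cell receptor BCMA, had 3, 1 and 13 counts in sham, against 0, 1 and 10 in PNX.

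The lymphocyte markers moved in the same direction as Cd40lg, Ltb and Tnfrsf13c, which had passed as lower. Other genes that lymphocytes express did not all do so. Blocked log2 fold changes were -0.60 ± 0.25 for Fasl, -0.50 ± 0.27 for Tnfrsf4 and -0.32 ± 0.10 for Cd27 (SE). They were -0.01 ± 0.23 for Tnfrsf13b, -0.06 ± 0.15 for Tnfrsf18, 0.38 ± 0.41 for Lta and 1.00 ± 0.19 for Tnfrsf9. In the blocked fit all 7 B cell markers were lower at an adjusted p under 0.05, with a median log2 fold change of -0.91, beside -0.01 over all genes. Their summed CPM was 195 and 259 in the earlier and later sham samples and 126 and 184 in PNX. Of 8 T cell markers 6 were lower (median -0.64), with summed CPM of 115 and 191 in sham, against 75.6 and 137 in PNX. Of 6 natural killer cell markers 0 passed (median -0.20). No marker of these lists was at 0 counts. The part of lymphocyte RNA in Cd40lg, Ltb, Tnfrsf13c and Fasl was not tested. Cd40 was higher while the B cell markers were lower. Of 10 macrophage and monocyte markers 8 were higher (median 0.59), with summed CPM of 2372 and 4293 in sham, against 3167 and 4287 in PNX. Of 7 dendritic cell markers 2 were lower and 0 higher (median -0.24). The part of B cells, macrophages or dendritic cells in Cd40 was not tested.

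Costimulatory genes of T cells formed most of what remained. Cd27, a lymphocyte receptor, had 4.39, 4.82 and 6.43 CPM in sham, against 3.42, 3.71 and 5.44 CPM in PNX (blocked log2 fold change -0.32 ± 0.10, adjusted p = 0.068). Tnfrsf4 (OX40), Tnfrsf8 (CD30) and its ligand Tnfsf8 had blocked log2 fold changes of -0.50 ± 0.27, -0.47 ± 0.43 and -0.23 ± 0.27 (SE). Tnfrsf18, the receptor GITR, had -0.06 ± 0.15, and its ligand Tnfsf18 had 0.88 ± 0.41 on 17, 31 and 7 counts in sham, against 45, 54 and 6 in PNX. None of these passed. RANK (Tnfrsf11a) and its ligand (Tnfsf11), known from bone, had 0.24 ± 0.15 and 0.13 ± 0.28, and all 3 PNX libraries were above the sham libraries for Tnfrsf11a. Tnfsf15, which encodes the EC-derived ligand TL1A, had 0.14 ± 0.23. Tnfrsf19, an orphan receptor also called TROY, had 30.3, 31.8 and 33.1 CPM in sham, against 30.2, 30.8 and 19.8 CPM in PNX, where the later PNX library stood below the rest.

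Without a test, 5 of 39 genes had all PNX libraries above all sham libraries (Cd40, Ltbr, Tnfrsf11a, Tnfrsf12a and Tnfrsf9), against 18.6% of all genes, and 4 had them all below (Fasl, Ltb, Tnfrsf13c and Tnfsf13b), against 18%. Because replicates 1 and 2 were near copies, such a separation rests on fewer independent libraries than it counts.

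The ratio of PNX to sham was also taken within each deposit, from counts, with exact 95% intervals that cover counting error only. It was 1.37 (1.29 to 1.46) in the earlier and 1.37 (1.20 to 1.56) in the later deposit for Tnfrsf12a. For Cd40 it was 1.38 (1.31 to 1.45) and 1.29 (1.14 to 1.45), and for Fas 0.752 (0.727 to 0.778) and 0.798 (0.734 to 0.868). These 3 genes and Tnfrsf9 (2.17 and 1.85), Tnfrsf23 (1.59 and 1.45), Ltb (0.752 and 0.621), Cd40lg (0.551 and 0.614) and Tnfrsf13c (0.519 and 0.675) had intervals on the same side of 1 in both deposits, and so did some genes that did not pass, such as Tnfsf10 and Ltbr. The genes that passed were picked by the blocked fit on the same counts, which favours ratios that agree between deposits. Their agreement is therefore no separate evidence. Other genes had unequal ratios. Tnfsf14 had ratios of 2.14 (1.80 to 2.54) and 1.08 (0.798 to 1.46). Tnfrsf19 had 0.981 (0.941 to 1.02) and 0.598 (0.540 to 0.661), and Tnfsf13b had 0.873 (0.812 to 0.938) and 0.597 (0.508 to 0.700). For Tnfsf18 the ratios were 2.20 (1.55 to 3.18) and 0.986 (0.274 to 3.43). The later one rests on 7 sham and 6 PNX counts, and its interval holds the whole earlier interval, so a difference cannot be read from them.

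**Figure D4:**
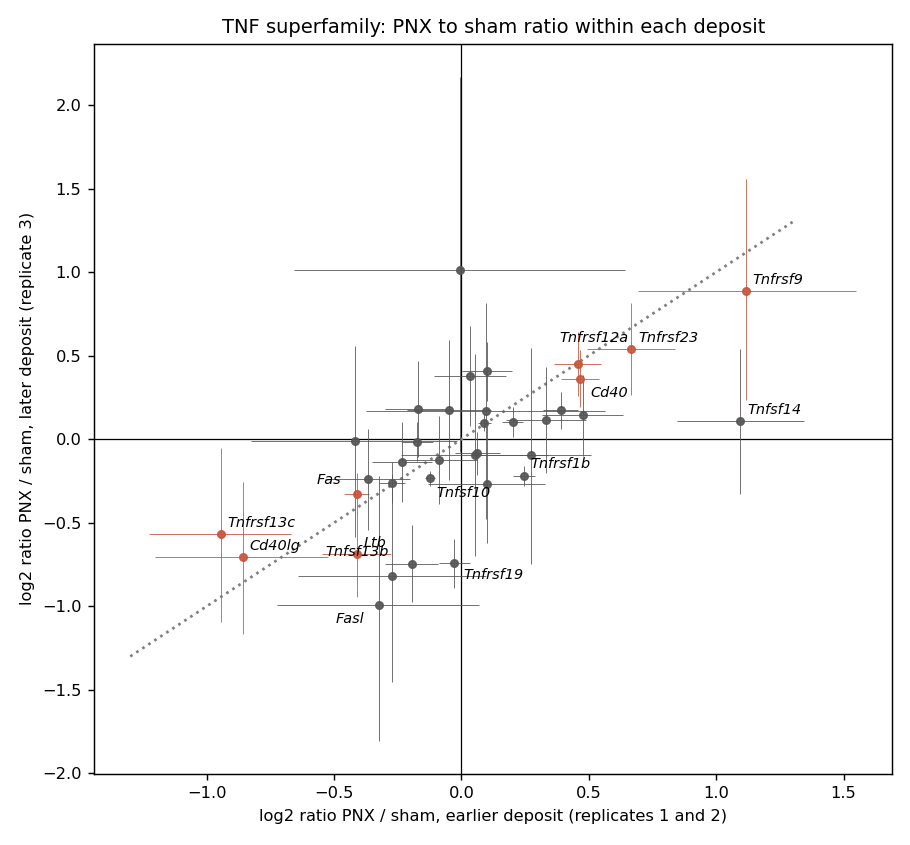
Log2 ratio of PNX to sham within the earlier deposit (horizontal) and the later deposit (vertical) for the 36 tested genes with at least 30 counts in the later deposit; bars are exact 95% counting intervals, the dotted line marks equal ratios, and red marks the 8 genes with an adjusted p under 0.05 in the blocked fit. The red points lie near the dotted line, Tnfsf14 (ratios 2.14 and 1.08) and Tnfrsf19 (0.981 and 0.598) lie away from it, and Tnfrsf1b is above 0 on the horizontal and below 0 on the vertical axis. The red genes were picked by the blocked fit on the same counts, which favours equal ratios in the 2 deposits.

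The 250 bases before the start of these genes were searched on both strands for 2 cores of κB sites (GGGNTTTCC and GGANTTTCC, which cannot match at the same place on a strand) and for the AP-1 motif TGANTCA, since NF-κB and AP-1 act downstream of the receptors. RefSeq promoters (GRCm38.p6) were at hand for 31 of the 41 genes, as 35 windows. GGGNTTTCC stood in 1.46% of all 32851 windows and, among the superfamily, in those of Tnfrsf9 and Tnfrsf13b. GGANTTTCC stood in 1.07% of all windows and, among the superfamily, in that of Ltb. TGANTCA stood in 6.75% of all windows and in those of Fas, Tnfrsf8, Tnfrsf9, Tnfsf13, Tnfsf13b and Tnfsf14. Windows of Tnfrsf12a, Tnfrsf23 and Tnfrsf13c held no match. Of the genes that passed the looser threshold, Tnfrsf9 with a κB match before 1 of its 2 starts was higher and Ltb with a κB match was lower. A match is a run of letters and not a bound site. The sequences that follow show the matches in capitals. Tnfrsf9 is given as its match with flanks (plus strand, chr4:150927947-150927975), Ltb as the stretch outside annotated exons (plus strand, chr17:35194257-35194438) and Fas as the whole window (plus strand, chr19:34290409-34290658), and the Tnfrsf12a stretch without a match (minus strand, chr17:23677469-23677699) is set beside them because its ratio of PNX to sham was the same in both deposits.
Tnfrsf9: agagcagctgGGGATTTCCcaggaggccc
Ltb: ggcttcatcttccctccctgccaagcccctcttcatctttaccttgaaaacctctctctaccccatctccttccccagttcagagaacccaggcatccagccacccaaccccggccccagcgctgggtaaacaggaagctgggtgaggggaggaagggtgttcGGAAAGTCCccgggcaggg
Fas: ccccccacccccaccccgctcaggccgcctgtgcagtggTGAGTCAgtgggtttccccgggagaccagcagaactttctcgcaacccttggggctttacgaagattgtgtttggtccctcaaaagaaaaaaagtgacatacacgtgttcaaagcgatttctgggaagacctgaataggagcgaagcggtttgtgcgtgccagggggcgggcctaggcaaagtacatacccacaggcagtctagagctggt
Tnfrsf12a: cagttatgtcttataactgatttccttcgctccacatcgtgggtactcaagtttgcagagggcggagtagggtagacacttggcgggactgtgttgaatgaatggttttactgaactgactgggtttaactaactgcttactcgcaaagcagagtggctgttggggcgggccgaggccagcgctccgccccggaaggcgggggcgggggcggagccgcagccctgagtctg
The κB match in Tnfrsf9 lies 42 to 34 bases before the second of its annotated starts, that in Ltb 87 to 79 bases, read on the other strand, and the AP-1 match in Fas 211 to 205 bases before the start. The window of the first Tnfrsf9 start held no match. In the second window the longest stretch free of annotated exons ends 82 bases before the start, so the Tnfrsf9 match lies outside that stretch.

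The genes around the receptors were taken from lists and read in the blocked fit. In that fit 5.12% of all genes were called and 21.6% passed the looser threshold. Of 17 TRAF proteins and receptor adaptors 1 was called, Traip, a TRAF-interacting ubiquitin ligase also tied to DNA replication (log2 fold change 1.69 ± 0.20, adjusted p = 0.00168). All 6 cell division markers were called higher as well (median 3.05), and their part in Traip was not tested. At the looser threshold Traf1, an adaptor of TNFR2 and CD40, was lower (-0.59 ± 0.10, adjusted p = 0.00755) and Fadd, the adaptor of Fas, was higher (0.44 ± 0.13, adjusted p = 0.0447). Of 13 NF-κB subunits and kinases 0 passed either threshold, with a median of -0.13. Of 10 genes listed as NF-κB feedback inhibitors 0 were called, and Nfkbie (0.48 ± 0.10), Nfkbiz (0.45 ± 0.11) and Bcl3 (0.60 ± 0.14, SE) passed the looser threshold as higher. The list name is loose, because the products of Nfkbiz and Bcl3 do not act as inhibitors only. Nfkbia and Tnfaip3, which are standard early targets of TNF, did not pass (-0.06 ± 0.10 and 0.26 ± 0.11).

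Of 10 death receptor effectors 0 were called. Ripk3 and Mlkl, the kinase and the membrane-lysing protein of necroptosis, passed the looser threshold as higher, with log2 fold changes of 0.70 ± 0.11 and 0.66 ± 0.12 (SE, adjusted p = 0.00507 and 0.00846). Of 18 genes that TNF induces in ECs 5 were called, all higher, beside 5.12% of all genes called in this fit. They were the chemokines Cxcl1 (2.59 ± 0.19), Ccl2 (1.74 ± 0.10) and Cxcl10 (1.48 ± 0.21), the matrix-binding protein gene Tnfaip6 (1.45 ± 0.20) and the cytokine Lif (1.12 ± 0.16). Cxcl2 passed the looser threshold as higher (0.53 ± 0.09, adjusted p = 0.00823). The adhesion molecule genes Icam1 (-0.11 ± 0.10), Vcam1 (0.23 ± 0.11), Sele (0.44 ± 0.20) and Selp (0.60 ± 0.23) did not pass. The median of this list was 0.40, beside -0.01 over all genes. Fibroblasts and macrophages also express several of these genes. Of 7 fibroblast markers 4 were called higher and Pdgfra passed the looser threshold as lower, with summed CPM of 1006 and 1192 in sham, against 2402 and 3370 in PNX, and the mesothelial markers Msln (1.81 ± 0.10), Wt1 (2.57 ± 0.12), Upk3b (1.02 ± 0.08) and Lrrn4 (1.07 ± 0.09, SE) were called higher too. The part of all these cells in the list was not tested. Of 7 relatives of the superfamily with other symbols 0 were called, and at the looser threshold Ngfr (1.15 ± 0.27) and Eda2r (0.65 ± 0.19) were higher and Eda lower (-0.47 ± 0.10). Without the block 0 genes of these lists were called.

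**Figure D5:**
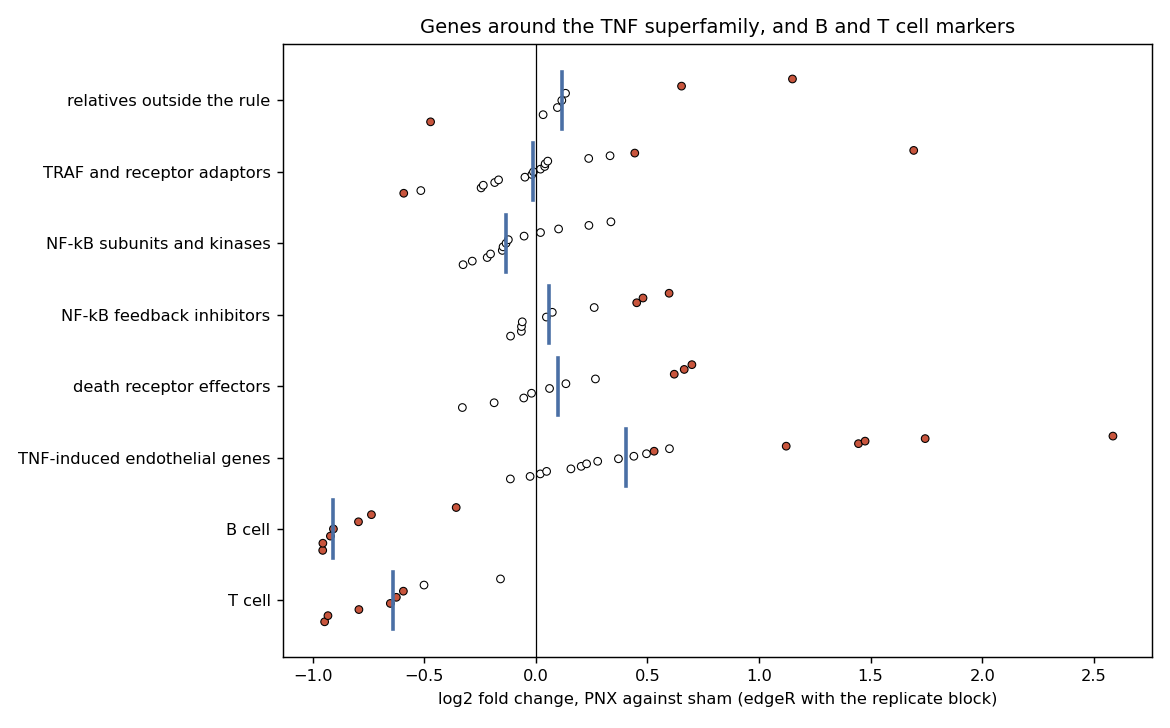
Blocked log2 fold change (horizontal axis) of each tested gene in 6 lists around the superfamily and in the B and T cell marker lists; red points have an adjusted p under 0.05 and blue bars are list medians. Cxcl1 (2.59) is the point farthest to the right, the NF-κB subunits and kinases hold no red point, and all 7 B cell markers are red and below 0.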

How the data were processed

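The authors aligned paired-end reads to mm10 (GRCm38) and deposited, for each library, a raw count of each of 33068 RefSeq transcripts with FPKM and TPM. STAR is named in the submitters' processing notes, and the methods name the Basepair platform for counting, whereas its counting rule, strand setting and annotation release are not stated. Those deposited counts were summed per symbol and tested; the deposited TPM served for levels between genes, and the FPKM values that the authors deposited were not used. Of the 41 genes, 11 have several transcripts that mostly carry much the same counts. Sums may therefore count shared reads more than once, which the unstated counting rule leaves unsettled, and printed CPM use the transcript with the most counts.

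Groups came from the labels. Tests used edgeR 4.0.16 in R 4.3.3 (TMM, filterByExpr, estimateDisp, glmQLFit, glmQLFTest, Benjamini-Hochberg over 16598 genes), with DESeq2 1.42.0 and limma 3.58.1 (voom) as alternatives, and scripts were checked on simulated counts. Thresholds were those of the study's methods. Because replicates 1 and 2 carry the re-use mark in sham and in PNX, the deposit pairs the samples, and the later-to-earlier differences of 13913 genes followed each other in the 2 groups (r = 0.734 by Pearson and rho = 0.745 by Spearman, across genes, which are not independent); with 2 samples per group the deposit and the replicate block are the same fit. Ratios within a deposit carry 95% Clopper-Pearson intervals, computed from the share of counts in PNX.

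Values in each library are given for genes called in a fit, with an absolute log2 fold change above 1, or among the 5 highest by TPM, with their partners; further genes were added after their values were seen. From each list around the receptors, the called genes and others of large change were named. The members, lists and rules were chosen with earlier results of these data known. Positions and overlaps are from GENCODE on GRCm38, and sequences from RefSeq (GRCm38.p6). Cd40 and Cd40lg had no entry among the promoter sequences. A further result among the death receptor effectors is not reported here.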

Additional observations from a re-analysis of the deposited data

Results flagged for a closer look

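Tnfrsf1b differed in direction between deposits: the ratio of PNX to sham was 1.18 (exact 95% counting interval 1.15 to 1.22) in the earlier deposit and 0.860 (0.824 to 0.896) in the later. Every library of the earlier deposit was thus higher after PNX and the later library lower. The difference between the deposits was not tested. The level of Tnfrsf1b also differed between deposits, by a log2 ratio of later to earlier of 1.46 in sham and 0.99 in PNX.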

How the results depend on the processing

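With 4 samples, no superfamily gene was called by edgeR, DESeq2 or limma-voom without the block, under any scaling or filter, with counts of the most abundant transcript, or, in edgeR, at an adjusted p under 0.05. Over all genes those tests of edgeR and limma-voom called 0%, and DESeq2 called 3.35%. With 6 separate libraries and no block 0 were called, beside 2.51% (edgeR) and 5.3% (DESeq2) of all genes, and 2 (edgeR: Cd40 and Tnfrsf12a, beside 13.2% of all genes) and 3 (DESeq2: also Tnfrsf13c, beside 19.8%) passed an adjusted p under 0.05. With the replicate block edgeR called 0 of 39 at the study's thresholds, 8 at an adjusted p under 0.05 with no fold threshold, and 1 (Tnfrsf9) at an adjusted p under 0.05 with an absolute log2 fold change above 1, the last an alternative added after seeing the data. Limma-voom with the replicate block called 1 (Tnfrsf9, adjusted p = 0.00587, beside 5.55% of all genes), as did edgeR on 6 separate libraries with the replicate block (adjusted p = 0.000405, beside 6.79% of all genes). Fits on 6 separate libraries, with or without the block, take the near-copy replicates as independent, so their p-values can be too small. Leaving out each library of the earlier deposit with the block gave 0 to 1 calls, the 1 being Tnfrsf9 without PNX replicate 2; without the block every such count was 0. The earlier deposit alone called 3 of 38 (Tnfrsf9, Tnfsf14 and Tnfsf18), beside 1203 of 16322 genes in all, but its near-copy replicates do not stand for separate animals. There the Tnfrsf1b log2 fold change was 0.271 (edgeR, adjusted p = 6.46e-07). In the edgeR fits on 4 samples it had no clear direction, at -0.08 ± 0.58 without the block and 0.02 ± 0.12 with it (SE).

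At an adjusted p under 0.05, 12 fits with the replicate block gave 4 (DESeq2, where 15.4% of all genes passed) to 20 genes, the highest with 6 separate libraries, where 51.6% of all genes passed. Cd40, Fas, Tnfrsf12a and Tnfrsf9 passed in 12 of the 12, Tnfrsf23 in 11, Ltb in 9, Cd40lg in 6 and Tnfrsf13c in 4. These fits share the same data. Leaving out a near-copy replicate lowers the depth of a sample but keeps all 4 samples. No blocked fit left out replicate 3, so the tally does not show how far a gene depends on 1 sample. Ltb was lost without PNX replicate 1 (adjusted p = 0.0598), and Cd40lg without that library or without sham replicate 2 (up to 0.0836). Tool and scaling mattered too. In blocked DESeq2 the adjusted p was 0.0924 for Tnfrsf23, 0.096 for Ltb, 0.193 for Cd40lg and 0.223 for Tnfrsf13c. Cd40lg and Tnfrsf13c were also lost in edgeR with DESeq2 size factors, upper-quartile scaling or library size alone, and Ltb with library size alone. Of the 39 genes, 17 kept their direction in all 29 other fits, and Tnfsf18 did in the 28 that tested it. A design of 2 samples per group leaves 1 residual degree of freedom with the block, and genes such as Tnfrsf9, Fasl and Lta rest on few counts.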
